A study of Homo sapiens with 6 samples.

Results

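The MYC, MAX and MXD network was examined in the RNA-seq data of sorafenib-resistant Huh7 cells treated with fostamatinib. It was defined by name as MYC, MAX, MXD1, MXI1, MXD3, MXD4, MNT, MGA and MLX, and all 9 members were found among the 16305 genes measured. Huh7 is a human hepatocellular carcinoma line, and the labels name the cells Huh7SR, which the study's text calls Huh7-R, a resistant pool selected by long-term exposure to sorafenib. Both groups consisted of these resistant cells, without sorafenib in the medium for some days before the experiment, so parental cells were not compared. The 3 fostamatinib samples received 2 µM fostamatinib, a prodrug of a spleen tyrosine kinase inhibitor, for 24 h, and the 3 DMSO samples received the solvent for 24 h (the labels write 2 µM for these as well). Nothing in the labels or the methods says whether the 3 samples of a group were separate cultures, so the p-values may measure only technical spread. The comparison asks how the drug changed expression in resistant cells.

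MYC is a transcription factor of the basic helix-loop-helix leucine zipper class that activates genes of growth, ribosome assembly and cell division. It binds DNA, at the E-box hexamer CACGTG and related sites, only as a dimer with MAX. MXD1, MXI1, MXD3, MXD4, MNT and MGA also dimerize with MAX and mostly act as repressors there, the MXD proteins and MNT through the SIN3 corepressor and MGA within a polycomb complex that contains PCGF6. MLX is a MAX-like protein that pairs with some MXD proteins and with the glucose-responsive factors MondoA (gene MLXIP) and ChREBP (gene MLXIPL). MYC is often raised in liver cancer, and MXD proteins are typical of cells that leave the cell cycle.

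The E-box is the site that these dimers share, so the promoters of the members were searched for it in RefSeq sequences (GRCh38.p14, from 250 bases before to 50 after each transcript start). CACGTG reads the same on both strands. MYC had no entry among these sequences, so its promoter was not searched. Of the 8 members with an entry, 3 had CACGTG in a promoter window, against 8.77% of all 27305 genes in the table and 12.4% of the 10466 measured genes that had an entry. Counted by window it was 23.1% of their 13 promoters, against 7.26% of all 35116 and 9.24% of the 15211 of measured genes. Entries were matched for only 10466 of 14390 gene symbols in the files, so the shares of measured genes rest on part of them. The E-boxes of the 3 members are shown in capitals with 12 bases on each side, at chr4:2262330-2262359 (- strand) for MXD4, chr17:2401236-2401265 (- strand) for MNT and chr17:42567038-42567067 (+ strand) for MLX.
MXD4: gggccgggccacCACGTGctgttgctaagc
MNT: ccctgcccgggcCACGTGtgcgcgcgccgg
MLX: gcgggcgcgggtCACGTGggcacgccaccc
The hexamer began 238 bases before the start site in MXD4, 193 in MNT and 50 in MLX. A match describes these letters and not binding.

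The samples held 13303451 to 15272737 reads on the measured genes, and the network took 0.0623% to 0.0657% of them under DMSO and 0.0751% to 0.0772% after fostamatinib. This summed share does not describe each member. Mean reads went from 2996 under DMSO to 4928 after fostamatinib for MXD4, and from 1307 to 790 for MYC. Levels are given as the deposited log2 CPM, the log2 of the read count, after adding 0.5, scaled to a common library size (CPM). Differences between groups were tested for all 16305 genes with limma, with Benjamini-Hochberg adjustment, and a gene was called changed at an adjusted p-value under 0.05. With this rule 47.8% of all genes were called, 23.3% higher and 24.5% lower after fostamatinib. The samples of a group correlated at 0.988 or more and samples of different groups at 0.972 or less (Pearson, across genes, which are not independent replicates). All 10 hepatocyte markers examined were measured and all 10 rose, by 0.21 for APOB to 3.19 for APOA1 on the log2 scale, and their summed level was 5106 to 5442 CPM under DMSO and 6930 to 7334 CPM after fostamatinib. ALB, which encodes albumin, had 8568 to 11313 reads a sample. Of 8 markers of fibroblasts, leukocytes and endothelium, 4 (PTPRC, CD68, CD3E and CDH5) were not analysed here, and the other 4 (COL1A1, COL3A1, PDGFRB and PECAM1) summed to 15.005 to 16.4 CPM under DMSO and 20.9 to 22.2 CPM after fostamatinib, with PDGFRB and PECAM1 called higher. The part of these marker changes in the results was not tested. In bulk RNA a change in the number of cells in a given state and a change in RNA per cell cannot be told apart.

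After fostamatinib, MYC, MXI1 and MAX fell and MXD4 and MXD3 rose, while MXD1, MNT, MGA and MLX were not called. Thus 5 of the 9 members were called, against 47.8% of all genes, a share near the background. In all 5 the 3 fostamatinib samples lay on one side of the 3 DMSO samples, which was the case for 54.1% of all genes (26.8% higher and 27.4% lower). None of the 9 changed more than 2-fold, whereas 7.13% of all genes were called and did, and none passed a test against a 2-fold change, which 1.81% of all genes passed. The largest change in size was that of MXD4, followed by those of MXD3 and MYC. The median log2 fold change of the 9 members was 0.02 and that of all genes was 0.0015.

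**Figure D1:**
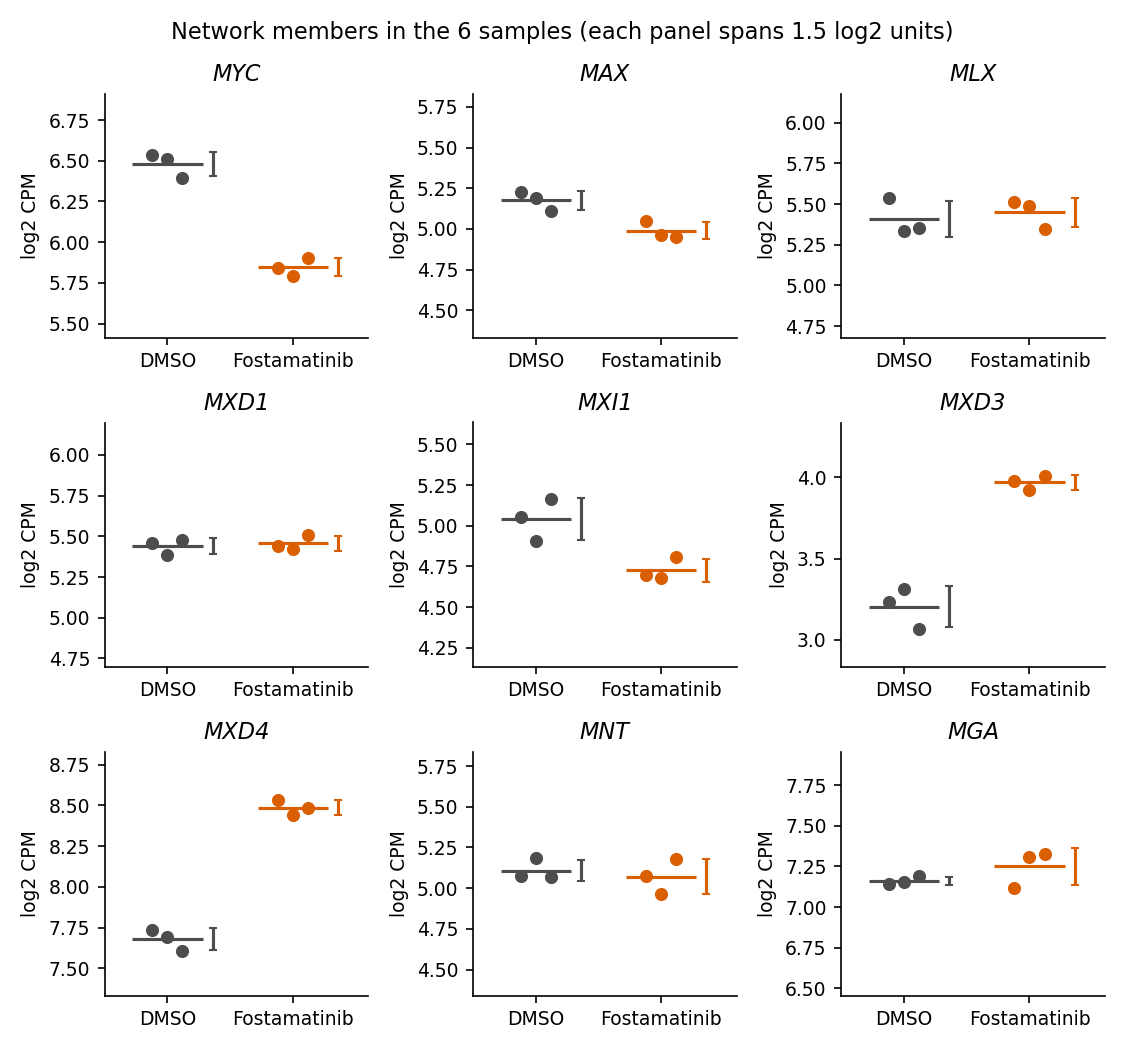
Log2 CPM of the 9 network members, with 1 point for each of the 3 DMSO samples (grey) and 3 fostamatinib samples (orange), a line at each group's mean and a bar of 1 SD on either side of it. Every panel spans 1.5 log2 units, so the groups of MYC, MXD3 and MXD4 stand clearly apart, those of MXI1 and MAX by little, and those of MXD1, MNT, MGA and MLX overlap.

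MYC (ENSG00000136997), the activator of the network, is located on the + strand of chromosome 8, between 128747680 and 128755197 in GRCh37, the build of all gene positions given here, and has 3 exons in its longest transcript. Its level was 6.53, 6.51 and 6.40 log2 CPM under DMSO and 5.84, 5.79 and 5.90 log2 CPM after fostamatinib. These values rest on 1277, 1392 and 1252 reads against 789, 789 and 792. The groups did not overlap, and the gap between them was several times the spread within either. The mean fell from 6.48 ± 0.0736 (SD, n = 3) to 5.85 ± 0.0554 (SD, n = 3) log2 CPM, a log2 fold change of -0.64 (standard error 0.053, 95% interval -0.74 to -0.53, adjusted p = 2.62e-12, limma), or 0.644 times the DMSO level.

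MAX (ENSG00000125952), the common partner, lies on chromosome 14 from 65472892 to 65569413 on the - strand. It stood at 5.23, 5.19 and 5.11 log2 CPM under DMSO and at 5.05, 4.96 and 4.95 log2 CPM after fostamatinib. The highest fostamatinib sample was only just below the lowest DMSO sample. The log2 fold change was -0.19 (standard error 0.066, 95% interval -0.32 to -0.05, adjusted p = 0.0187, limma), the smallest of the called members. This call was lost when DMSO replicate 1 (adjusted p = 0.0878, limma), fostamatinib replicate 2 (0.0659) or fostamatinib replicate 3 (0.0715) was left out. Over all alternatives other than the test against a 2-fold change, the adjusted p-value for MAX ranged from 0.00769 to 0.0878. Exons of FNTB, on the opposite strand, share 822 bases with MAX, and FNTB had 55 to 73 reads in any sample, with a log2 fold change of 0.10 (adjusted p = 0.645, limma).

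MXD4 (ENSG00000123933), a MAX-binding repressor found mainly in resting and differentiated cells, lies on chromosome 4 from 2249159 to 2263836 on the - strand. It had 2938, 3160 and 2891 reads under DMSO and 5095, 4951 and 4738 reads after fostamatinib, more than any other member in every sample. On the log2 CPM scale these are 7.74, 7.69 and 7.60 against 8.53, 8.44 and 8.48, again with a gap far wider than either group. The log2 fold change was 0.81 (standard error 0.040, 95% interval 0.72 to 0.89, adjusted p = 2.41e-18, limma), a 1.75-fold rise. It was the most precisely measured change in the network.

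MXD3 (ENSG00000213347), unlike the other MXD genes, is known from dividing cells in S phase. It lies on chromosome 5 from 176728462 to 176739758 on the - strand. It was the member with the fewest reads, 129, 151 and 124 under DMSO and 216, 215 and 213 after fostamatinib, or 3.23, 3.31 and 3.07 log2 CPM against 3.98, 3.92 and 4.01. All fostamatinib samples were above all DMSO samples, and the log2 fold change was 0.76 (standard error 0.103, 95% interval 0.56 to 0.97, adjusted p = 1.08e-07, limma). MXD3 shares 926 exonic bases with RAB24 on its own strand and 1148 with PRELID1 on the other, in the annotation used here. How the authors counted reads there is not given in the sources used here. RAB24 had 54 to 58 reads under DMSO and 64 to 74 after fostamatinib (log2 fold change 0.39, adjusted p = 0.0443, limma), and PRELID1 fell by 0.36 on the log2 scale (adjusted p = 1.09e-08, limma). The part of these neighbours in the rise of MXD3 was not tested.

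MXI1 (ENSG00000119950), another MAX-binding antagonist of MYC, lies on chromosome 10 from 111967363 to 112047123 on the + strand. It went the other way from MXD3 and MXD4. Its level was 5.05, 4.91 and 5.17 log2 CPM under DMSO and 4.70, 4.68 and 4.81 log2 CPM after fostamatinib. The DMSO samples were spread more widely than those of any other member (SD 0.129), with replicate 2 lowest, but still lay above all fostamatinib samples. The log2 fold change was -0.32 (standard error 0.074, 95% interval -0.47 to -0.17, adjusted p = 0.0005, limma).

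MXD1 (ENSG00000059728, chromosome 2 from 70124820 to 70170077, + strand), the MAX-binding repressor best known from differentiating cells, was at 5.46, 5.39 and 5.48 log2 CPM under DMSO and at 5.44, 5.42 and 5.51 log2 CPM after fostamatinib. The groups overlapped almost entirely. The difference was 0.02 on the log2 scale with a 95% interval of -0.11 to 0.14 (adjusted p = 0.856, limma). MXD1 shares 237 exonic bases with SNRNP27 on its own strand, which was not called either (log2 fold change -0.06, adjusted p = 0.455, limma). MNT (ENSG00000070444, chromosome 17 from 2287367 to 2304398, - strand), the broadly expressed MAX-binding repressor, was at 5.07, 5.18 and 5.07 log2 CPM and at 5.07, 4.96 and 5.18 log2 CPM. Its difference was -0.04 (95% interval -0.18 to 0.10, adjusted p = 0.694, limma). For both genes a change of the size of that of MYC or MXD4 lies outside the interval.

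MGA (ENSG00000174197, chromosome 15 from 41913332 to 42065279, + strand), the largest protein of the network with a T-box as well as a helix-loop-helix domain, was at 7.14, 7.16 and 7.19 log2 CPM under DMSO and at 7.12, 7.31 and 7.32 log2 CPM after fostamatinib. Fostamatinib replicate 1 lay below all DMSO samples and the other two above them. The difference was 0.09 (95% interval -0.01 to 0.19, adjusted p = 0.129, limma). Without fostamatinib replicate 1 it was 0.16 and passed the threshold (adjusted p = 0.00934, limma), the lowest over the alternatives, which reached 0.479 apart from the test against a 2-fold change. MLX (ENSG00000108788, chromosome 17 from 40719090 to 40725257, + strand) was at 5.54, 5.33 and 5.36 log2 CPM and at 5.51, 5.49 and 5.35 log2 CPM, with a difference of 0.04 (95% interval -0.09 to 0.17, adjusted p = 0.630, limma). Its exons share 775 bases with PSMC3IP on the opposite strand, which fell by 0.75 on the log2 scale (adjusted p = 3.43e-06, limma) from a mean of 167 reads.

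The adjusted p-values above borrow the spread of other genes, and the design has 3 samples a group. An exact permutation test of any single member, two-sided, cannot give a p-value below 0.1. Without limma's mean-variance trend the adjusted p-values of the 5 called members were larger, at 0.00142 for MYC, 0.0454 for MAX, 0.0321 for MXI1, 0.00175 for MXD3 and 0.000593 for MXD4, and all 5 were still called.

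Levels were compared between members only per transcript length, as CPM divided by the length of the longest annotated transcript in kilobases. Under DMSO, MXD4 was highest at 48.5 ± 2.25 (SD, n = 3), followed by MYC at 24.0 ± 1.21, MLX at 16.4 ± 1.29, MAX at 11.5 ± 0.463 and MGA at 9.83 ± 0.166. Below them were MXI1 at 9.51 ± 0.844, MXD1 at 7.79 ± 0.259, MNT at 6.999 ± 0.322 and MXD3 at 4.04 ± 0.346 (SD, n = 3 for each). In this order only MGA and MXI1 overlapped as neighbours. After fostamatinib MXD4 stood at 84.8 ± 2.73 and MYC at 15.5 ± 0.594 (SD, n = 3), so that MYC was no longer distinct from MLX at 16.9 ± 1.04. MGA (10.5 ± 0.819) overlapped with MAX (10.1 ± 0.373), MXD1 (7.87 ± 0.245) with MXI1 (7.62 ± 0.371), and MXD3 (6.85 ± 0.219) with MNT (6.83 ± 0.507). The order depends on the length used: with the length of all exons merged, MAX was in place 6 of 9 in both groups, and MXD4 was first in both as before.

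**Figure D2:**
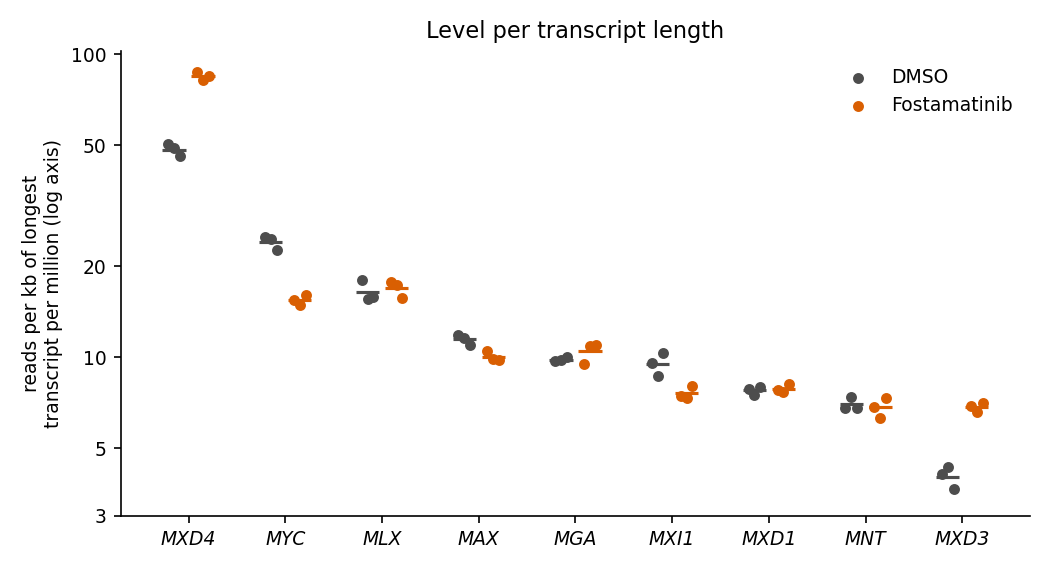
Level of each member as CPM per kilobase of its longest transcript (log axis), ordered by the DMSO mean, with 1 point per sample and a line at the mean of the 3 samples of each group. MXD4 was highest in every sample and rose from 48.5 to 84.8, while MYC fell from 24.0 to 15.5, to the range of MLX.

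Because the MXD proteins and MYC compete for MAX, their levels were also set against each other within each sample on this per-length scale. The log2 ratio of the sum of MXD1, MXI1, MXD3 and MXD4 to MYC was 1.531, 1.503 and 1.586 under DMSO and 2.832, 2.803 and 2.747 after fostamatinib, so that every treated sample lay above every control. As a linear ratio the 4 MXD genes together were 2.91 times MYC under DMSO and 6.93 times MYC after fostamatinib. MXD4 alone supplied 67.7% to 70.5% of the MXD sum under DMSO and 78.4% to 79.8% after fostamatinib. Without MXD4 the log2 ratio of the other 3 to MYC was -0.17 ± 0.113 (SD, n = 3) and 0.53 ± 0.00948 (SD, n = 3). The log2 ratio of MAX to MYC was -1.07 ± 0.0174 under DMSO and -0.62 ± 0.0816 after fostamatinib (SD, n = 3 each). Both of these ratios have MYC, which fell by 0.64 on the log2 scale, as denominator. MAX itself fell by 0.19. Of the 3 MXD genes other than MXD4, only MXD3 was called higher, and MXI1 was called lower. These ratios combine genes chosen with results known and are given as a description, without a test. They concern transcripts, and protein levels or dimers were not measured here.

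Of 3 related genes measured, MYCN and MLXIPL changed by more than any member. MYCN, the neural paralogue of MYC that also occurs in liver tumours, had 170, 189 and 193 reads under DMSO and 107, 77 and 86 after fostamatinib. The groups did not overlap, and the fall was by 0.95 in log2 units (standard error 0.125, adjusted p = 6.81e-08, limma), and per length it was at 4.81 ± 0.139 under DMSO, well below MYC at 24.0. MYCL was not analysed here. MLXIPL, which encodes the glucose-responsive lipogenic factor ChREBP, had 26, 15 and 17 reads under DMSO and 105, 127 and 109 after fostamatinib. From this low level it rose 6.27-fold, or by 2.65 in log2 units (standard error 0.208, adjusted p = 4.68e-13, limma). MLXIP, which encodes MondoA, had 989, 1127 and 1014 reads and 875, 949 and 914 reads, a difference of -0.10 (95% interval -0.21 to 0.01, adjusted p = 0.114, limma). It was called lower only without DMSO replicate 3 (adjusted p = 0.0379, limma), and the other alternatives gave up to 0.352 beside the test against a 2-fold change. Of the partners of MLX the gene with few transcripts thus rose, and per length MLXIPL reached 2.54 ± 0.197 against 7.88 ± 0.319 for MLXIP (SD, n = 3 each).

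**Figure D3:**
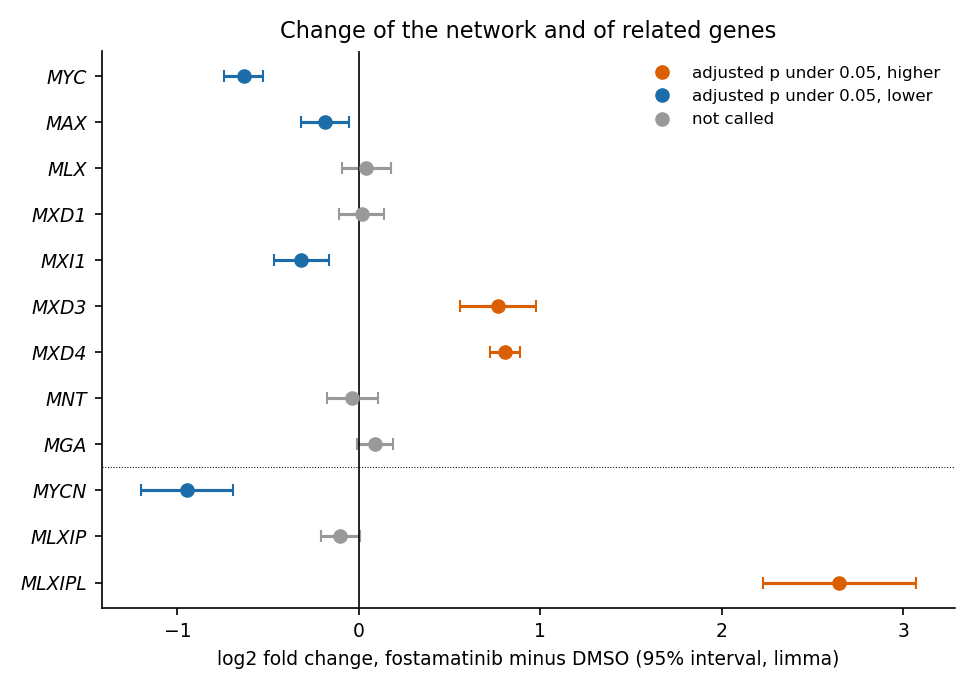
Log2 fold change (fostamatinib minus DMSO) of the 9 members, above the dotted line, and of 3 related genes below it, with 95% intervals from limma, in orange where higher, blue where lower and grey where not called. The intervals of MYC, MAX and MXI1 lie below 0, those of MXD3 and MXD4 above it, and MLXIPL at 2.65 exceeds every member.

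The listed genes that MYC is known to activate were lower almost without exception. Of 47 such genes listed from textbook knowledge 46 were measured, and 44 of them fell (95.7%), against 24.5% of all genes. None rose. This list, like the others here, was drawn up with earlier results of these data known. Its shares are thus a description and cannot serve as independent support. The median log2 fold change was -0.62, against 0.0015 for all genes, and it ranged from -1.41 to 0.05. In all 44 the fostamatinib samples lay below all DMSO samples, which was the case for 27.4% of all genes. The exceptions were UBTF, a factor of ribosomal RNA transcription, with 0.05 (adjusted p = 0.398, limma), and IPO4, a nuclear import receptor with 3 to 12 reads a sample, with -0.53 (adjusted p = 0.449, limma). CCND2 was not analysed here.

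The largest falls among these targets were those of TERT, RRS1 and RRP12. TERT, the catalytic subunit of telomerase, had 55, 62 and 57 reads under DMSO and 24, 13 and 26 after fostamatinib. In log2 units the change was -1.41 (standard error 0.241, adjusted p = 7.48e-06, limma). RRS1, a factor of large ribosomal subunit assembly, had 328, 392 and 349 reads and then 149, 168 and 126, a fall by 1.19 (standard error 0.093, adjusted p = 5.03e-13, limma). RRP12, a ribosome export factor, had 912, 969 and 878 reads and then 421, 383 and 357, a fall by 1.16 (standard error 0.065, adjusted p = 5.74e-17, limma). In all, 4 of the 46 fell more than 2-fold, against 3.29% of all genes.

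Ribosome assembly made up much of the list. The 26 genes of ribosome assembly, the nucleolus and RNA polymerase I had a median log2 fold change of -0.68, with 25 lower, and the 20 other measured targets a median of -0.54, with 19 lower. This division was made after the values were seen, as was the choice of the following examples. The nucleolar proteins NCL (13270, 15107 and 15182 reads, then 8788, 8847 and 8433) and NPM1 fell by 0.65 and 0.58 on the log2 scale. Outside the nucleolus, ODC1, the first enzyme of polyamine synthesis, fell by 0.48 and SRM, the spermidine synthase of the same pathway, by 0.94. CAD, which starts pyrimidine synthesis, fell by 0.56, CDK4, the G1 cyclin-dependent kinase, by 0.49, and LDHA, a lactate dehydrogenase subunit, by 0.38. The adjusted p-values of these 7 genes were 4.14e-11 or lower (limma).

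**Figure D4:**
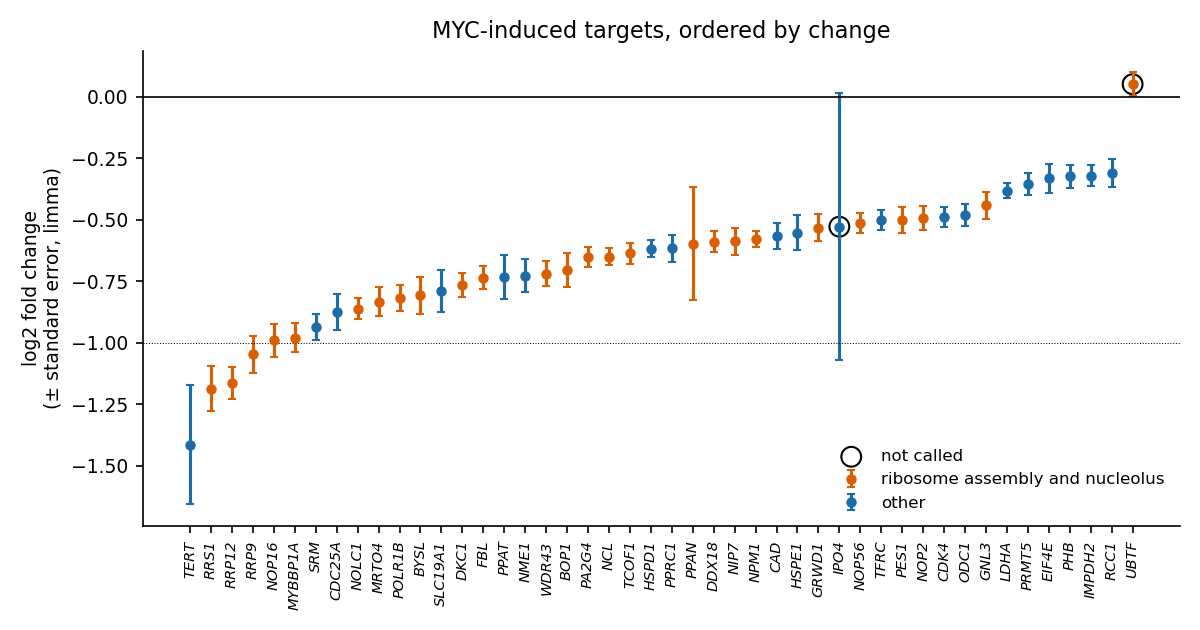
Log2 fold change of the 46 MYC-induced targets, ordered by size, with the standard error from limma as bars, in orange for ribosome assembly and the nucleolus and in blue for the others, and with the dotted line at a 2-fold fall. All but UBTF lie below 0, and UBTF and IPO4 (ringed) were not called.

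**Figure D5:**
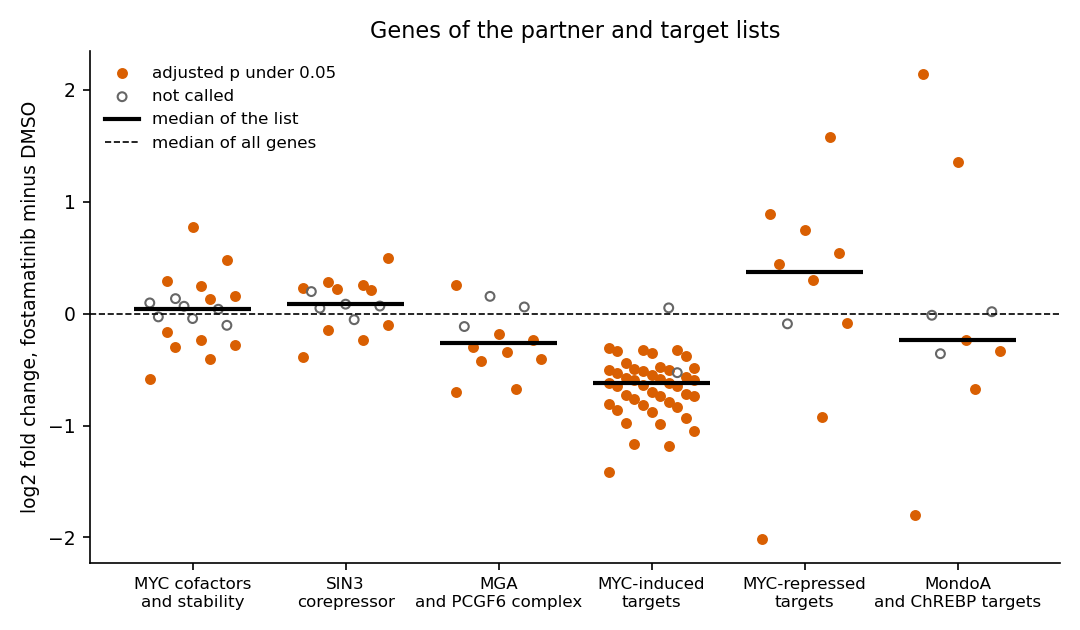
Log2 fold change of each gene in 6 lists around the network, filled where called and open where not, with the median of each list as a thick line and that of all genes (0.0015) dashed. The MYC-induced targets lie together around a median of -0.62, while the other lists spread to both sides of 0.

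The E-box was common in the promoters of these targets. A promoter entry existed for 38 of the 47 genes, and 22 of the 38 (57.9%) had CACGTG in at least 1 window, against 8.77% of all genes in the table and 12.4% of measured genes with an entry. Counted by window, 44% of their 50 promoters had it, against 7.26% of all promoters and 9.24% of those of measured genes. MYC binds this site and the genes were listed as its targets, so a raised share may come from the choice of genes. The share describes sequence and not an effect of fostamatinib. The fall was similar with and without it in these windows, with a median log2 fold change of -0.67 in the 22 genes and -0.59 in the other 16. The following 4 windows are shown as examples of the site before the start of genes that fell, chosen after the values were seen, with the hexamer in capitals. They lie at chr1:11060200-11060229 (- strand, SRM), chr12:57752394-57752423 (- strand, CDK4), chr4:98929188-98929217 (- strand, EIF4E) and chr2:197500345-197500374 (- strand, HSPD1) of GRCh38.p14.
SRM: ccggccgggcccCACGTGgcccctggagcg
CDK4: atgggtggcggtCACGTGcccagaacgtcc
EIF4E: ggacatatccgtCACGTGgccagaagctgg
HSPD1: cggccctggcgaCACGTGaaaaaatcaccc
The last E-box belongs at the same time to HSPE1, which starts from the opposite strand, and these paired chaperonin genes fell by 0.62 and 0.55 on the log2 scale. EIF4E, the cap-binding translation factor, fell by 0.33 (adjusted p = 1.44e-05, limma).

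Genes that MYC is known to repress went in both directions. Of the 10 listed, 6 rose and 3 fell, against 23.3% and 24.5% of all genes, with a median log2 fold change of 0.37. The gene not called was CDKN1A, with -0.09 and overlapping groups (adjusted p = 0.340, limma). CEBPA, a hepatocyte and adipocyte differentiation factor, rose by 1.58 (standard error 0.082, adjusted p = 7.19e-18, limma), from 242, 370 and 365 reads to 891, 945 and 861. NDRG2, a differentiation-related gene, rose by 0.89 and CDKN2C, an inhibitor of CDK4 and CDK6, by 0.74. The members that fell were GADD45A, CDKN2B and FTH1. GADD45A, a stress-induced growth arrest gene, had 1156, 1192 and 1188 reads and then 276, 264 and 280, a fall by 2.02 (standard error 0.064, adjusted p = 5.72e-24, limma), the largest in the list. CDKN2B, another inhibitor of CDK4 and CDK6, fell by 0.92 (adjusted p = 1.55e-14, limma). FTH1, the ferritin heavy chain, fell by only 0.09 with overlapping groups (adjusted p = 0.0412, limma), and its call was lost without DMSO replicate 1 or 2, without fostamatinib replicate 2 or 3, without the mean-variance trend, with median-ratio size factors and with a minimum of 10 reads.

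The corepressors through which the MXD proteins act were split. Of the 15 SIN3 complex genes 6 rose (40%, against 23.3% of all genes) and 4 fell (26.7%, against 24.5%), and none changed more than 2-fold. The median log2 fold change was 0.08. SIN3B, a scaffold of the complex, fell by 0.14 (adjusted p = 0.0163, limma), which was lost when DMSO replicate 1 or fostamatinib replicate 2 was left out and without the mean-variance trend. SIN3A, the other scaffold, was not called, with overlapping groups (log2 fold change -0.05, adjusted p = 0.373, limma). SAP30 fell by 0.39 and HDAC2, a histone deacetylase, by 0.23. The deacetylase HDAC1 rose by 0.25, the subunit SUDS3 by 0.29 and ARID4A, a chromatin-binding subunit, by 0.50 (adjusted p = 7.83e-09, limma). The direction thus differed between the paired deacetylases.

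The polycomb complex of MGA fell in most of its parts although MGA itself was not called. Of the 12 genes 8 fell and 1 rose, against 24.5% and 23.3% of all genes, with a median log2 fold change of -0.26. PCGF6, the subunit that defines the complex, had 263, 288 and 339 reads under DMSO and 202, 182 and 135 after fostamatinib, a fall by 0.70 (standard error 0.107, adjusted p = 1.11e-06, limma). RNF2, a ubiquitin ligase of the complex, fell by 0.67 (adjusted p = 6.79e-06, limma) and E2F6, its DNA-binding repressor, by 0.42 (adjusted p = 1.06e-04, limma). RING1, the other ubiquitin ligase in the list, did not fall. Its log2 fold change was 0.15 and it was not called (adjusted p = 0.110, limma), with all fostamatinib samples above all DMSO samples. HDAC1 was the gene that rose. HDAC1 and HDAC2 stand in both this list and that of the SIN3 complex. WDR5, which fell, stands in both this list and that of the MYC cofactors, and is counted in each.

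Among 19 cofactors and regulators of MYC protein stability 6 rose and 6 fell, 31.6% each way, against 23.3% and 24.5% of all genes, with a median log2 fold change of 0.04. RUVBL1, an ATPase of chromatin complexes that bind MYC, fell by 0.58 (adjusted p = 1.70e-11, limma), WDR5, a chromatin adaptor of MYC, by 0.41 and CIP2A (listed as KIAA1524), an inhibitor of protein phosphatase 2A that protects MYC, by 0.29. FBXW7, the ubiquitin ligase subunit that marks MYC for degradation, rose by 0.48 (adjusted p = 8.06e-07, limma), from 355, 426 and 461 reads to 565, 558 and 495. AURKA, a mitotic kinase that stabilizes MYC family proteins, rose by 0.77 (adjusted p = 1.40e-18, limma), from 2952, 3444 and 3344 reads to 5128, 5515 and 4984. KAT5, an acetyltransferase, rose by 0.29 (adjusted p = 0.0041, limma), a call that was lost without DMSO replicate 1 (0.061). Without the mean-variance trend only 3 of the 19 were called higher.

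Targets of MondoA and ChREBP, the partners of MLX, did not move together. Of 9 measured genes 2 rose (22.2%, against 23.3% of all genes) and 4 fell (44.4%, against 24.5%), with a median log2 fold change of -0.24. TXNIP, the thioredoxin-interacting protein and the best-known MondoA target, fell by 0.24 (standard error 0.042, adjusted p = 1.24e-05, limma). ELOVL6, a fatty acid elongase, fell by 0.67 and KLF10, a Krüppel-like factor, by 0.33. ARRDC4, named after its value was seen, had 9, 3 and 8 reads under DMSO and 1, 2 and 1 after fostamatinib. It fell by 1.79 (adjusted p = 0.0285, limma). With 10 reads required in each sample, or 5 reads in 2 of 3 samples of both groups, 3 genes were lower. The same count came without DMSO replicate 1 or 3, or without fostamatinib replicate 1 or 3. The 2 genes that rose, named here after their values were seen, were PKLR, the liver pyruvate kinase, and GPD1, a glycerol phosphate dehydrogenase, and both rested on at most 13 reads in any sample. Only 1 of them was called without DMSO replicate 3 or without fostamatinib replicate 1 or 3. Neither was left where each sample had to have 10 reads, or where both groups had to have 5 reads in 2 of 3 samples. G6PC was not analysed here.

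For each called member the gene most like it in profile was taken as that with the highest Pearson correlation of log2 CPM over the 6 samples, among 11209 genes with at least 50 reads on average in both groups. These were HYI for MYC (r = 0.999), ALG8 for MAX (0.997), COX11 for MXI1 (0.999), LSS for MXD3 (0.9997) and PEX6 for MXD4 (0.999). With 6 samples in 2 groups that stand apart such values are common for some members: 182 genes exceeded 0.99 with MYC, 166 with MXD3 and 223 with MXD4. Fewer did so with MAX (10) and MXI1 (6). The correlations are given as a description only.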

How the data were processed

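RNA from 3 DMSO-treated and 3 fostamatinib-treated samples of resistant Huh7 cells was sequenced. Per the study's methods, reads were aligned by HISAT to hg19 and assigned to GENCODE v.22 genes by featureCounts. A gene was discarded by the authors if, in both groups, 2 of 3 samples or more had under 5 reads, and TMM normalization followed. The deposited values are log2 CPM computed by the authors with 0.5 added to each count. Whether counting used strand is not given in the sources used here.

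Whole reads were recovered from every value (within 0.05 of a whole number), giving 13303451 to 15272737 reads per sample on the measured genes. Reads on removed genes are not included. One ribosomal RNA gene listed repeatedly was used once. Groups and replicate numbers were taken from the sample labels. The linear model was fitted on all 16305 genes with limma 3.58.1 in R 4.3.3 (eBayes with a mean-variance trend, treatment as the only term, Benjamini-Hochberg adjustment), as planned for log values. It was also run on simulated counts in which every gene had the same setting of spread between samples. In the data the spread varies by gene, so no conclusion is drawn from that run. Gene coordinates and transcript lengths are from the GENCODE version 44 annotation mapped to GRCh37, the build of hg19, and promoter sequences are from RefSeq on GRCh38.p14. No coordinate was converted between the builds. The members and lists were chosen with earlier results of these data known. Named were all members and related genes, the 3 largest called rises and 3 largest called falls with at least 50 reads in each list, and the gene most like each called member. Alternatives were limma-voom on the recovered reads, no trend, median-ratio size factors, library size alone, filters of 5 or 10 reads, a pseudocount of 2, the replicate number as a blocking factor, leaving out each sample, a test against a 2-fold change and merged exon lengths.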

Additional observations from a re-analysis of the deposited data

How the results depend on the processing

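The directions and calls of MYC, MXI1, MXD3 and MXD4 held in all 14 alternatives other than the test against a 2-fold change, with log2 fold changes of -0.68 to -0.61 for MYC, -0.38 to -0.26 for MXI1, 0.70 to 0.82 for MXD3 and 0.77 to 0.84 for MXD4. MAX was called in 11 of the 14, with -0.22 to -0.16, and lost its call only when 1 of 3 samples was left out. MGA was called in 1 of the 14, with 0.051 to 0.155 when each sample was left out. MXD1, MNT and MLX were called in none. The replicate numbers did not pair the samples: the departures from the group means correlated between samples of one number at 0.034, -0.044 and 0.041, and 2 of 6 samples correlated best with their own number. A replicate block gave 7977 called genes, against 7794 without it, and with it no call of a member changed.

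In the test against a 2-fold change 295 genes were called. The log2 fold changes stay as before (-0.64 for MYC, -0.19 for MAX, -0.32 for MXI1, 0.76 for MXD3 and 0.81 for MXD4), but none of the 5 was called, and the counts were 0 higher and 0 lower for the cofactors, the SIN3 complex, the MGA complex and the MondoA and ChREBP targets, 0 lower for the MYC-induced targets and for the related genes, and 1 higher and 1 lower for the MYC-repressed targets. Without the mean-variance trend 3 cofactors were higher and 2 SIN3 genes lower. Of the MondoA and ChREBP targets 0 were higher under either stricter read filter, since both genes were removed. Without the nucleolar genes, an alternative chosen after seeing the data, 19 MYC-induced targets were lower. When each sample was left out in turn, the counts were 1 to 2 lower for the related genes (2 without DMSO replicate 3), 2 to 4 lower for the SIN3 complex (2 without fostamatinib replicate 2), 1 to 2 higher for the MondoA and ChREBP targets (1 without DMSO replicate 3, fostamatinib replicate 1 or fostamatinib replicate 3), and 43 to 44 lower for the MYC-induced targets.

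With merged exon lengths the levels per length under DMSO were 14.6 for MYC, 5.77 for MAX, 6.84 for MXD1, 5.59 for MXI1, 1.94 for MXD3, 29.8 for MXD4, 3.96 for MNT, 7.13 for MGA and 9.99 for MLX, and after fostamatinib 9.41, 5.07, 6.91, 4.48, 3.29, 52.1, 3.87, 7.60 and 10.3 in the same order. The log2 ratio of the MXD sum to MYC was then 1.596 under DMSO and 2.828 after fostamatinib. A run without any filter was not made, since the files are filtered already.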
